A study of Homo sapiens with 22 samples.

Results

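The 9 genes described here write, copy, erase or read out DNA methylation, or belong to the ASXL family: DNMT1, DNMT3A, DNMT3B, UHRF1, TET1, TET2, TET3, ASXL1 and ASXL2. They were chosen by name, out of 20037 protein-coding genes on chromosomes 1 to 22, X and Y, and all 9 matched the RefSeq gene table by symbol. For each gene, peaks within 1 kb of either outer end of the gene and peaks along its span were taken from 4 ChIP lists, and peaks on its RNA from 2 CLIP lists, by the gene symbol the lists give. The cells are THP-1, a human monocytic leukaemia line. Control cells carried a lentivirus with a control hairpin (sh-control), and knockdown cells a lentivirus with a hairpin against QKI5 (sh-QKI5), the nuclear isoform of the RNA-binding protein QKI; the labels describe no other treatment and name no clone. ChIP, the sequencing of DNA that comes down with an antibody, was done for H3K4me3, a histone mark of active promoters, and for RNA polymerase II (Pol II). CLIP, the sequencing of RNA crosslinked to a protein, was done for QKI5. Each of the 6 lists was made from 2 replicates together, so every value below is a single value per condition with no replicate check, the depth of the libraries is unknown, and no difference between conditions was tested.

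DNA methylation is the addition of a methyl group to cytosine, in mammals mostly where cytosine is followed by guanine (CpG). DNMT3A and DNMT3B place new methyl groups, DNMT1 copies them to the new strand after replication with the help of UHRF1, and the TET enzymes oxidise them, a step towards their removal. ASXL1 and ASXL2 are scaffold subunits of the BAP1 complex, which removes ubiquitin from histone H2A. DNMT3A, TET2 and ASXL1 are known as frequent sites of mutation in clonal blood formation and myeloid leukaemia.

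The labelled cell type was checked on marker genes. Of 9 monocytic and myeloid markers, 6 (CD14, LYZ, CD33, SPI1, CEBPA and ITGAM) had an H3K4me3 gene-end peak in both conditions, and 5 of the 9 had a Pol II peak in both. Over all protein-coding genes, 66.6% had H3K4me3 and 57.6% had Pol II at a gene end in both conditions. The myeloid counts lie near these shares, so by themselves they do not set the labelled type apart. H3K4me3 was in both conditions at 0 of 3 T-cell, 1 of 3 B-cell (CD79A), 0 of 3 erythroid, 0 of 3 epithelial and 1 of 3 fibroblast markers (COL1A1), and Pol II in both conditions at 0 of 3 in each of these types. CD79A had Pol II in control alone and ALAS2 in knockdown alone.

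Stretches of promoter sequence are shown first because the results turn on them: both promoters of DNMT3A, the first and the internal promoter of TET1, and a start of UHRF1 that lies well inside the gene's outer end. They are RefSeq sequences (GRCh38.p14), each from 250 bases before to 50 bases after a transcript start, 5′ to 3′ on the strand of the gene, with CpG in capitals.
DNMT3A, upstream promoter, chr2:25341876-25342175, minus strand: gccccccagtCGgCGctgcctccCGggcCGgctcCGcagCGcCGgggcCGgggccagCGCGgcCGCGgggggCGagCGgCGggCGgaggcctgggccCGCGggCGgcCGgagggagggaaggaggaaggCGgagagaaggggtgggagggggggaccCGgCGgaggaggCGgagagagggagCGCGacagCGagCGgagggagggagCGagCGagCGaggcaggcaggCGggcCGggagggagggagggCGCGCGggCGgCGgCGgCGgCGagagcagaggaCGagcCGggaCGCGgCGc
DNMT3A, internal promoter, chr2:25252266-25252565, minus strand: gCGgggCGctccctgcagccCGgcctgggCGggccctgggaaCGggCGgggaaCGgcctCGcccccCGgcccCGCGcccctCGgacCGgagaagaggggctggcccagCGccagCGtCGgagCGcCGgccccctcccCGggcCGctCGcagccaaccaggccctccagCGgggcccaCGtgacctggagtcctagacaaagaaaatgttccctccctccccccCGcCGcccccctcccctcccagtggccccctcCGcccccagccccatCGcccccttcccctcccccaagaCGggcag
TET1, first promoter, chr10:68560087-68560386, plus strand: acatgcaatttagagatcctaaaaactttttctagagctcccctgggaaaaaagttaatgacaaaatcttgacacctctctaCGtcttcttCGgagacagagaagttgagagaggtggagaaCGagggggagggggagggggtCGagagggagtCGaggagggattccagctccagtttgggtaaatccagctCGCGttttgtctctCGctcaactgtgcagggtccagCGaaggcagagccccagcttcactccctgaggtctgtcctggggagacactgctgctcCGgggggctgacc
TET1, internal promoter, chr10:68600224-68600523, plus strand: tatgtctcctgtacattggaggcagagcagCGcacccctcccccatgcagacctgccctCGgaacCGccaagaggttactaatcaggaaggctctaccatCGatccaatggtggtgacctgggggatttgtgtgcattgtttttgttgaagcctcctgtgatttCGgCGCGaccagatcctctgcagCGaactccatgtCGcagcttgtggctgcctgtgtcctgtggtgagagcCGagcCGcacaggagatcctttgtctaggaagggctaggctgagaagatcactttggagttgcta
UHRF1, promoter, chr19:4910117-4910416, plus strand: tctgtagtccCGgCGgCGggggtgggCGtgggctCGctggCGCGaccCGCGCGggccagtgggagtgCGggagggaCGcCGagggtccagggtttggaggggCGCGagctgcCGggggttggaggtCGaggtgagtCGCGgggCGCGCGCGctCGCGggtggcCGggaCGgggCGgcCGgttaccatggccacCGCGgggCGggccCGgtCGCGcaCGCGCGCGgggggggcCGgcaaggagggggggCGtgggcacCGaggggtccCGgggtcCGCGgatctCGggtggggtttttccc

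The upstream DNMT3A window holds 46 CpG, and 97.1% of the 35116 windows in the table hold fewer. Its internal window holds 28, with 73.8% holding fewer. The UHRF1 window also holds 46 CpG. The TET1 windows hold 10 and 11, below the median of 14 over all windows, so the 2 TET1 windows are the poorest in CpG of those shown. All 9 genes had windows, 23 in all, several of which overlap, with 2 to 46 CpG and a median of 29. The sequence elements ACTAAC and ACTAAT, DNA forms of the element that QKI recognises in RNA, were searched on both strands. They are in 2 of these 23 windows, both at the internal TET1 starts and overlapping each other, and in 10.2% of all windows.

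H3K4me3 lay at a RefSeq start or at the 5′ outer end of each of the 9 genes in both conditions. By the outer gene ends, 8 of 9 had a peak in both lists, against 66.6% of all protein-coding genes, and UHRF1 had none, as did 32% of genes. UHRF1 entered once its 3 RefSeq starts, 6.4 to 7.3 kb inside the outer end, were used. Counted by starts, which here means any RefSeq start or the 5′ outer end, 9 of 9 had the mark in both lists, against 71% of 15842 protein-coding genes. DNMT3B counts through its 5′ outer end: its sole RefSeq start in the promoter table, 17.5 kb into the gene, had 0 of 300 window bases under a peak of either mark in either condition. No member had it in a single condition. Over all genes 0.554% had it at an outer end in control alone and 0.779% in knockdown alone, and by starts 0.309% and 0.612%, with 28.1% in neither.

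Pol II differed more between the lists. At the outer gene ends 6 of 9 members (DNMT1, DNMT3B, TET2, TET3, ASXL1 and ASXL2) had a peak in both conditions, against 57.6% of all genes. DNMT3A and TET1 had a peak in knockdown alone, 2 of 9, against 3.97% of all genes, and UHRF1 in control alone, against 1.91%. No member was without Pol II in both lists, as 36.5% of genes were. The UHRF1 peak lay at the 3′ end and had the narrowest width that occurs in the lists; such peaks are called narrowest peaks here. The TET1 peak was also a narrowest peak, so DNMT3A is the member left in knockdown alone when such peaks are dropped. Counted by starts as above, 8 of 9 members (DNMT3B again through its 5′ outer end) had Pol II in both lists, against 60.7% of genes, and TET1 in knockdown alone, against 3.53%. In control alone 1.43% and in neither list 34.3% of genes were found by starts, and no member.

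**Figure D1:**
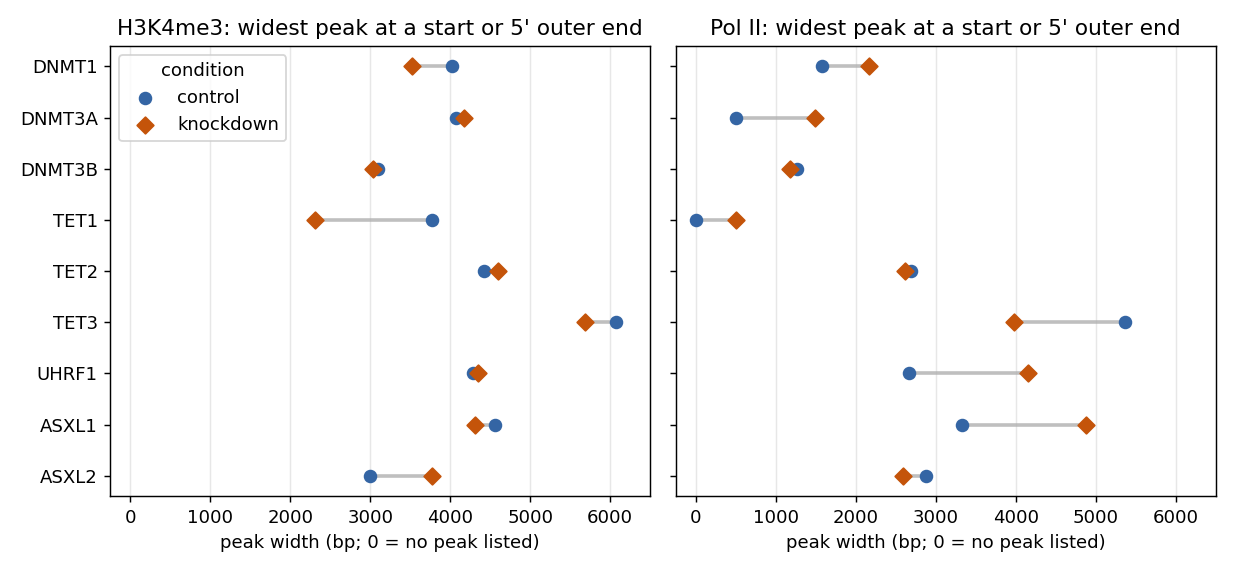
Width in bp of the widest H3K4me3 peak (left) and Pol II peak (right) at a RefSeq start or the 5′ outer end of each gene (for DNMT3B, the 5′ outer end), with control as blue circles, knockdown as orange diamonds, and 0 where no peak is listed. H3K4me3 widths lie close together except at TET1 (3770 and 2309 bp) and ASXL2 (2998 and 3775 bp), and for DNMT3A the Pol II points belong to different starts of the gene.

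DNMT3A, a de novo methyltransferase, has upstream starts, which give the long protein, and internal starts about 90.3 to 90.5 kb further into the gene, which give a shorter protein. In control the upstream H3K4me3 peak spanned 25339126 to 25343203 on chromosome 2 (GRCh38.p5), 4078 bp, and in knockdown 25339176 to 25343343, 4168 bp. The mark thus covered the upstream window shown above in both conditions. No control Pol II peak lay on it. In knockdown a Pol II peak of 1496 bp, at 25340650 to 25342145, covered 270 of the 300 bases of that window, and the nearest control Pol II peak was 19661 bp away. This window belongs to the start 0.7 kb into the gene. The windows of the starts at 0 and 0.1 kb lay outside the Pol II peak.

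At the internal DNMT3A starts the Pol II lists went the other way. Control had a narrowest Pol II peak at 25252343 to 25252843, which covered 223 bases of the internal window, and the nearest knockdown Pol II peak was 41790 bp away. H3K4me3 was listed there in both conditions, as a control peak of 1318 bp at 25251782 to 25253099 and a knockdown peak of 1847 bp at 25251303 to 25253149. Each condition therefore had Pol II at a different set of DNMT3A starts, and counted over any start DNMT3A has Pol II in both lists.

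Between these promoters DNMT3A carried further Pol II peaks. A site 46.6 to 48.0 kb into the gene was in both conditions, with a 1351 bp control peak and a 1297 bp knockdown peak, and a 671 bp H3K4me3 peak lay there in knockdown alone. A site 26.0 to 27.9 kb into the gene was in control alone, with a Pol II peak of 1919 bp and a narrowest H3K4me3 peak. Knockdown alone had narrowest Pol II peaks at 9.8 kb and 40.8 kb. No CLIP peak of DNMT3A was listed in either condition.

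**Figure D2:**
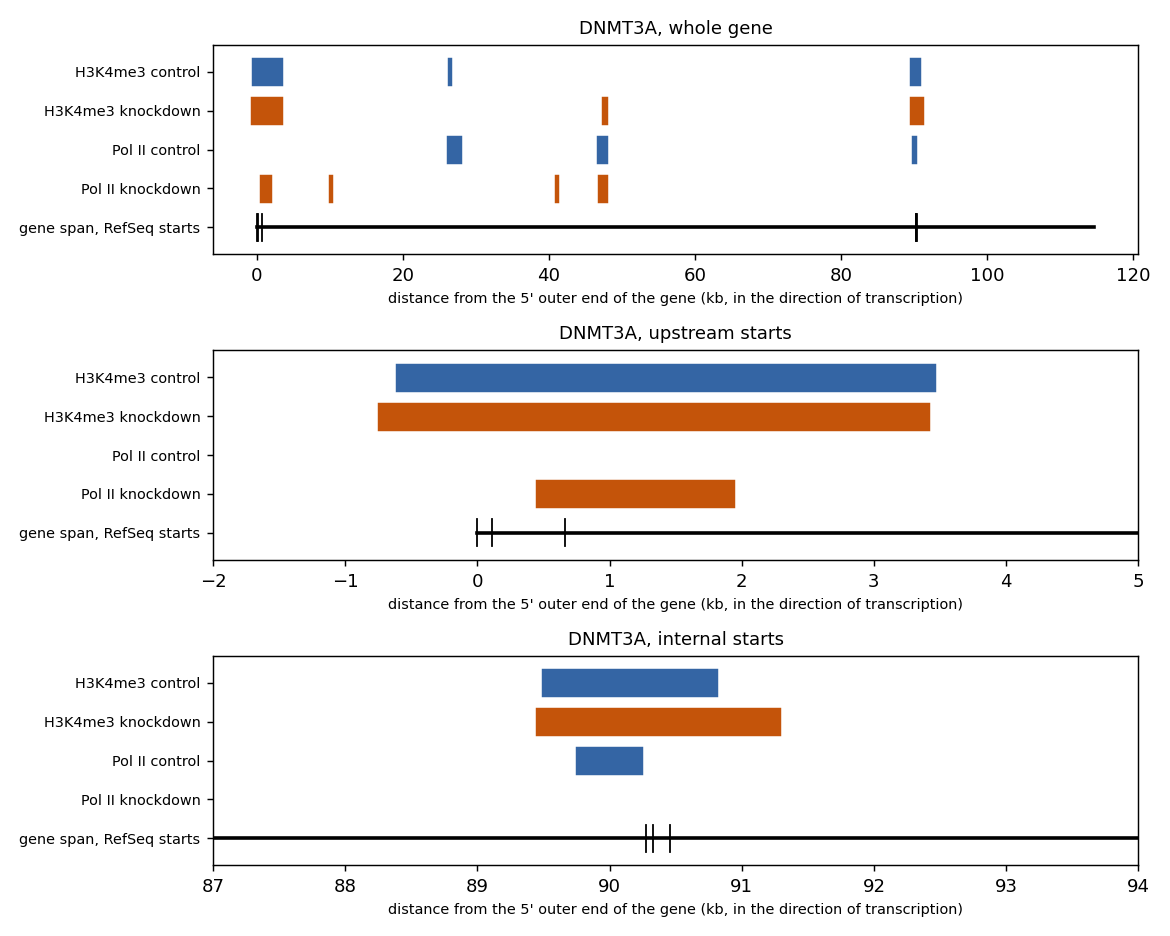
Peaks along DNMT3A in the 4 ChIP lists (control blue, knockdown orange) by distance in kb from the 5′ outer end of the gene, over the whole gene and enlarged at the upstream and internal starts; the black line is the gene span and ticks are RefSeq starts. H3K4me3 is at both promoters in both conditions, while Pol II is at the upstream starts in knockdown alone (1496 bp) and at the internal starts in control alone (a narrowest peak).

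DNMT3B, the other de novo enzyme, had nearly the same peaks in both conditions. Its H3K4me3 peak spanned 32761477 to 32764568 on chromosome 20 in control (3092 bp), while the knockdown peak ran from 32761423 to 32764451 (3029 bp). Pol II covered 1266 bp with sh-control (32761767 to 32763032) against 1176 bp with sh-QKI5 (32761988 to 32763163). Neither mark had a peak elsewhere on its 47.0 kb span, and no CLIP peak was listed.

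DNMT1, the maintenance methyltransferase, had the most Pol II peaks of the 9 genes. Its start carried an H3K4me3 peak of 4017 bp with sh-control against 3522 bp with sh-QKI5. The Pol II peak there was 1579 bp (chromosome 19, 10193828 to 10195406) in control cells and 2160 bp (10194007 to 10196166) in knockdown cells. The knockdown Pol II peak was thus 1.37 times as wide, and 22.3% of the 9439 genes whose widest start peaks overlap had a ratio at least as high. Along its 61.6 kb span DNMT1 had 12 Pol II peaks in control and 9 in knockdown, and 4 in each list overlapped the other. At least 10 Pol II peaks on the span were listed for 1.12% of all genes in control and 1.02% in knockdown.

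The DNMT1 body peaks covered different stretches in each list. Away from the gene ends, control had 10 and knockdown 7, of which 2 in each overlapped. Between 11.0 and 19.3 kb into the gene control had 4 peaks of up to 1046 bp and knockdown none. Between 32.7 and 37.7 kb knockdown had 3 peaks of up to 982 bp and control none. At the 3′ end the control Pol II peak was 2292 bp wide, 10132800 to 10135091, and the knockdown peak a narrowest peak inside it. The whole Pol II cover on the DNMT1 span came to 13195 bp in control and 8284 bp in knockdown.

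UHRF1, which binds half-methylated DNA and brings DNMT1 to it, had more of its span under Pol II peaks in knockdown. Its start H3K4me3 peak spanned 4909013 to 4913297 on chromosome 19 in control (4285 bp), while the knockdown peak ran from 4908643 to 4912992 (4350 bp). The widest Pol II peak at these starts covered 2666 bp with sh-control (4908968 to 4911633) against 4153 bp with sh-QKI5 (4908325 to 4912477), 1.56 times as wide. A separate narrowest control Pol II peak at 4912457 to 4912957 overlapped the end of the knockdown peak and is left out of this ratio. A ratio of at least 1.5 was found at 15.8% of genes, and the control peak was at least 1.5 times as wide at 8.84%. The 2666 bp and the 4153 bp peak each covered the whole UHRF1 window shown above.

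Further along UHRF1 the Pol II lists parted. Knockdown had peaks of 1923 bp and 918 bp at 10.5 to 12.4 kb and 13.3 to 14.2 kb, on an H3K4me3 peak listed in both conditions (2940 bp with sh-control, 3505 bp with sh-QKI5). That H3K4me3 peak and the 918 bp Pol II peak also lie within 1 kb of an end of ARRDC5, a gene that overlaps UHRF1, so these peaks cannot be given to UHRF1 alone. Knockdown also had a 1080 bp peak at 18.8 kb and narrowest peaks at 22.8 and 47.8 kb, and control had narrowest peaks at 51.4 and 52.6 kb. Pol II cover on the UHRF1 span was 4169 bp with sh-control against 9076 bp with sh-QKI5. The knockdown value includes the 1923 bp and 918 bp peaks, and cover was not compared over all genes.

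TET1, an enzyme that oxidises methylcytosine, was the member whose H3K4me3 width differed most. Its start peak spanned 68559053 to 68562822 on chromosome 10 in control (3770 bp), while the knockdown peak ran from 68559509 to 68561817 (2309 bp). The control peak was at least 1.5 times the knockdown peak at 2.05% of the 11156 genes whose widest H3K4me3 start peaks overlap, and the knockdown peak at least 1.5 times the control peak at 1.74%. The ratio of knockdown to control was 0.612 at TET1, and a median of 0.972 over those genes. Pol II was listed there in knockdown alone, as a narrowest peak at 68560021 to 68560521 that holds the whole first TET1 window, with the nearest control Pol II peak 31552 bp away.

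An internal TET1 site also appeared in knockdown alone. A narrowest H3K4me3 peak at 68600025 to 68600525 covered all of the internal window shown above, 37202 bp from the nearest control H3K4me3 peak. No Pol II peak lay there in either list. Narrowest peaks make up 8.26% of the knockdown H3K4me3 list and 28.6% of its Pol II list.

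**Figure D3:**
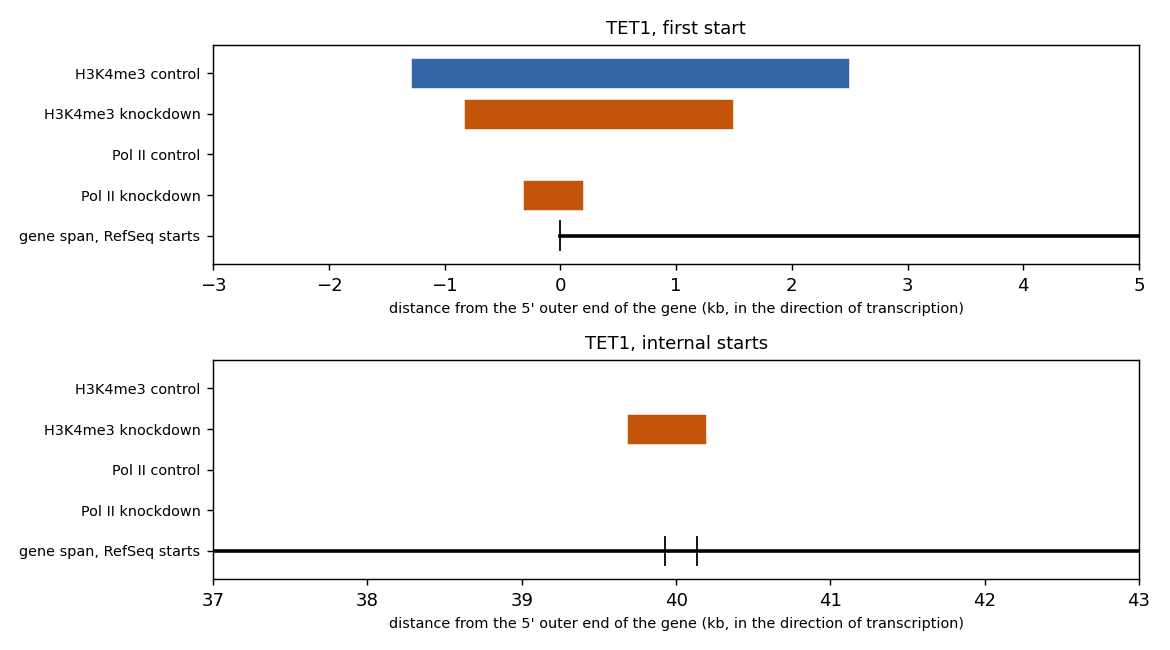
Peaks at the first start (top) and the internal starts (bottom) of TET1 by distance in kb from the 5′ outer end of the gene, with control in blue, knockdown in orange, and RefSeq starts as ticks on the black gene line. The knockdown H3K4me3 peak (2309 bp) lies inside the control peak (3770 bp), and the Pol II peak and the internal H3K4me3 peak, both narrowest peaks, are listed in knockdown alone.

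TET2, the family member most often mutated in myeloid disease, had peaks of similar width at the same place in both conditions. H3K4me3 spanned 105144915 to 105149340 on chromosome 4 in control (4426 bp), while the knockdown peak ran from 105145197 to 105149798 (4602 bp). Pol II covered 2692 bp with sh-control (105145183 to 105147874) against 2614 bp with sh-QKI5 (105145234 to 105147847). These peaks were the sole peaks of either mark on its 133.9 kb span. Another protein-coding gene in RefSeq, LOC124900868, and the antisense gene TET2-AS1 overlap TET2. Peaks carry no strand, so polymerase of these genes cannot be told apart from that of TET2 where they overlap.

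TET3 had the widest start peak of the 9 genes for H3K4me3 in both conditions and for Pol II in control; in knockdown the Pol II start peaks of ASXL1 and UHRF1 were wider. H3K4me3 covered 6071 bp with sh-control (chromosome 2, 73983357 to 73989427) against 5683 bp with sh-QKI5 (73983787 to 73989469). The control Pol II peak there was 5371 bp (73982940 to 73988310). In its place the knockdown list had a 3983 bp peak (73983123 to 73987105) and a narrowest peak (73987669 to 73988169), both inside the control peak. The wider knockdown peak was 0.742 times the control width, a ratio that leaves out the narrowest peak. A ratio at or below it was found at 14.1% of genes whose widest Pol II start peaks overlap.

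Inside TET3, H3K4me3 sites at about 96 and 136 kb were in both lists. At the first, 1064 bp with sh-control against 1184 bp with sh-QKI5, Pol II was listed in knockdown alone, with a peak of 1056 bp at 74079654 to 74080709. At the second, where the pseudogene FNBP1P1 lies, H3K4me3 covered 1917 bp with sh-control against 1789 bp with sh-QKI5, and Pol II 1441 bp against 2040 bp. A Pol II site at 53.7 kb was in both lists, a narrowest peak with sh-control and 628 bp wide with sh-QKI5. A 693 bp Pol II peak at 148.9 kb was in control alone, as was a narrowest H3K4me3 peak at 42.8 kb. The protein-coding gene BOLA3 also overlaps TET3. Peaks carry no strand, so polymerase of BOLA3 cannot be told apart from that of TET3 where they overlap.

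ASXL1 and ASXL2 had both marks at their starts in both conditions. ASXL1 H3K4me3 covered 4556 bp with sh-control (chromosome 20, 32356420 to 32360975) against 4311 bp with sh-QKI5 (32356871 to 32361181). Its Pol II start peak was 3328 bp (32357065 to 32360392) and 4885 bp (32356710 to 32361594) in the same order, a ratio of 1.47. ASXL2 H3K4me3 covered 2998 bp with sh-control (chromosome 2, 25875791 to 25878788) against 3775 bp with sh-QKI5 (25875580 to 25879354), a ratio of 1.26 that 5.7% of genes reached. The Pol II start peak of ASXL2 was 2883 bp (25876362 to 25879244) and 2595 bp (25876685 to 25879279), again in that order. The Pol II widths of the ASXL genes therefore went opposite ways, with ratios of 1.47 and 0.900. A ratio at least as high as that of ASXL1 was found at 17.3% of genes, and one at or below that of ASXL2 at 30.4%. Both lie in the common range, and the difference was not tested.

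At the 3′ ends of both ASXL genes Pol II was listed in knockdown alone. The ASXL1 peak, at 32439603 to 32441476, was 1874 bp wide and began past the gene's 81 kb span, at 81.3 kb. The nearest control peak was 1259 bp beyond it, near an end of the protein-coding gene NOL4L. Peaks carry no strand, so which gene the knockdown peak belongs to cannot be told. The ASXL2 peak was a narrowest peak, at 25733487 to 25733987. A 3′ end peak in knockdown alone was listed at 6.41% of the 15842 genes with a known strand, and in control alone at 4.85%, as at UHRF1. DNMT1 was in both lists at its 3′ end, as 20.5% of genes were, and the other 5 members were in neither, as 68.2% were. ASXL2 also had an H3K4me3 site 26.1 kb into the gene in both lists, 1217 bp with sh-control against 771 bp with sh-QKI5, with a 640 bp Pol II peak in knockdown alone.

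**Figure D4:**
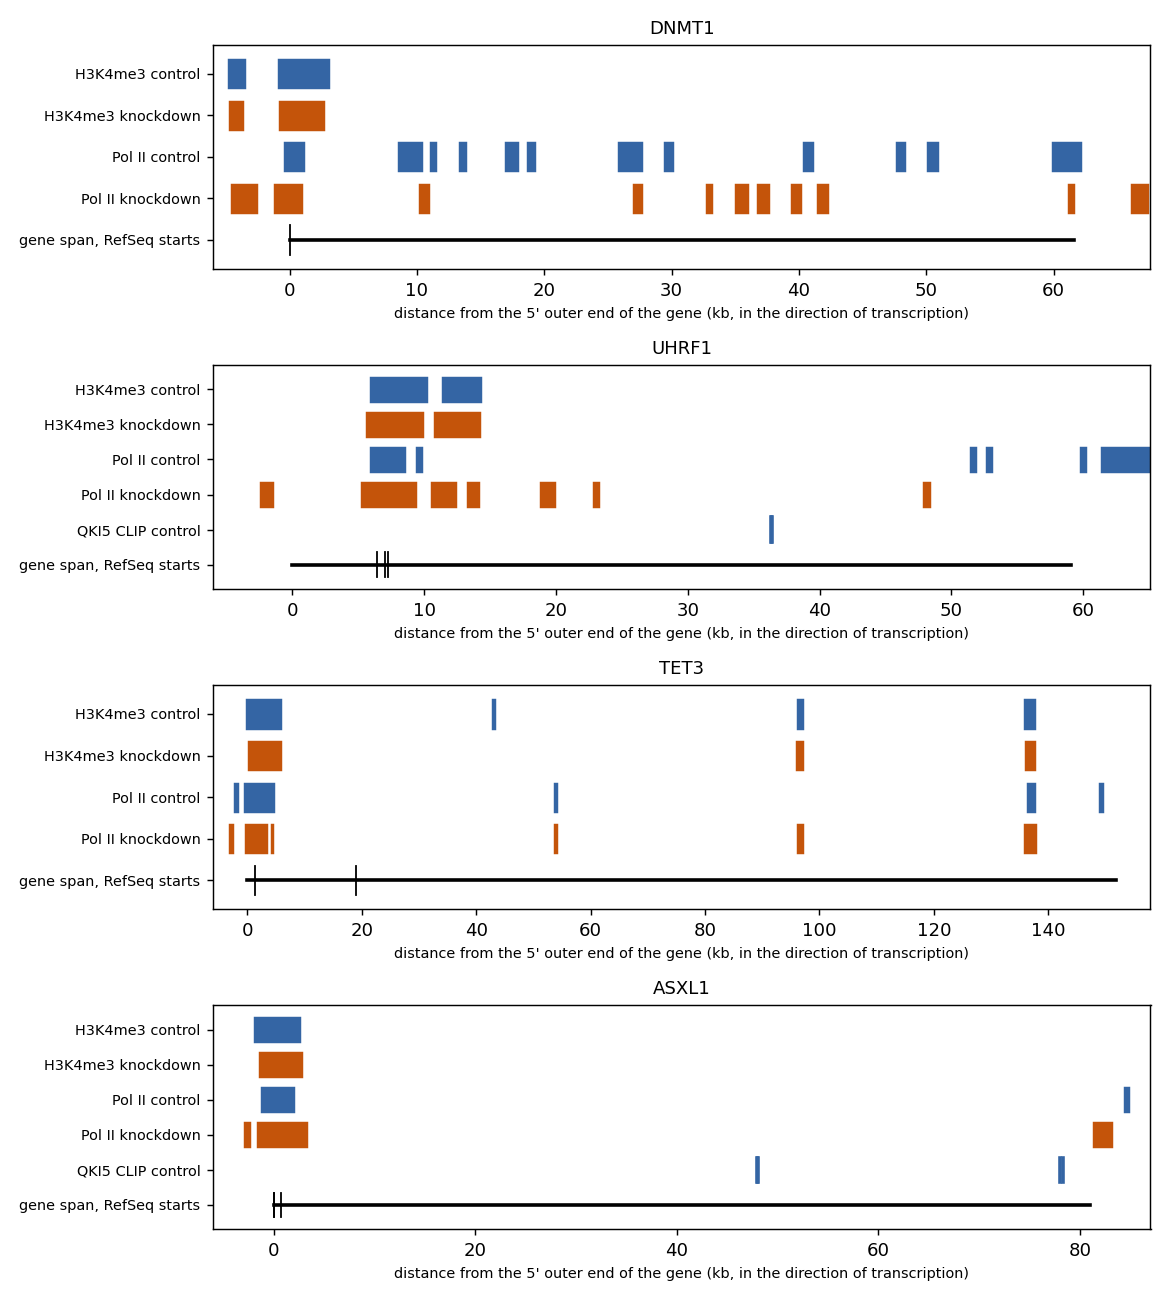
Peaks along DNMT1, UHRF1, TET3 and ASXL1 by distance in kb from the 5′ outer end of each gene, with control in blue, knockdown in orange, control CLIP peaks as blue ticks, and the gene span with its RefSeq starts in black. DNMT1 has 12 control and 9 knockdown Pol II peaks on its span, 4 of each overlapping, and the ASXL1 CLIP peaks lie apart from every ChIP peak.

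Over all 9 spans the H3K4me3 lists held 16 peaks each, and 14 in each overlapped a peak of the other condition. Away from the gene ends it was 6 of 8 in each, against 73.9% of control and 81.4% of knockdown peaks over all protein-coding genes. Pol II peaks numbered 27 in control and 31 in knockdown, of which 14 and 14 overlapped. Away from the gene ends, 7 of 20 control and 7 of 21 knockdown Pol II peaks overlapped. Over all protein-coding genes it was 44.1% for control and 42.7% for knockdown. DNMT1 alone gave 10 of 20 (control) and 7 of 21 (knockdown).

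**Figure D5:**
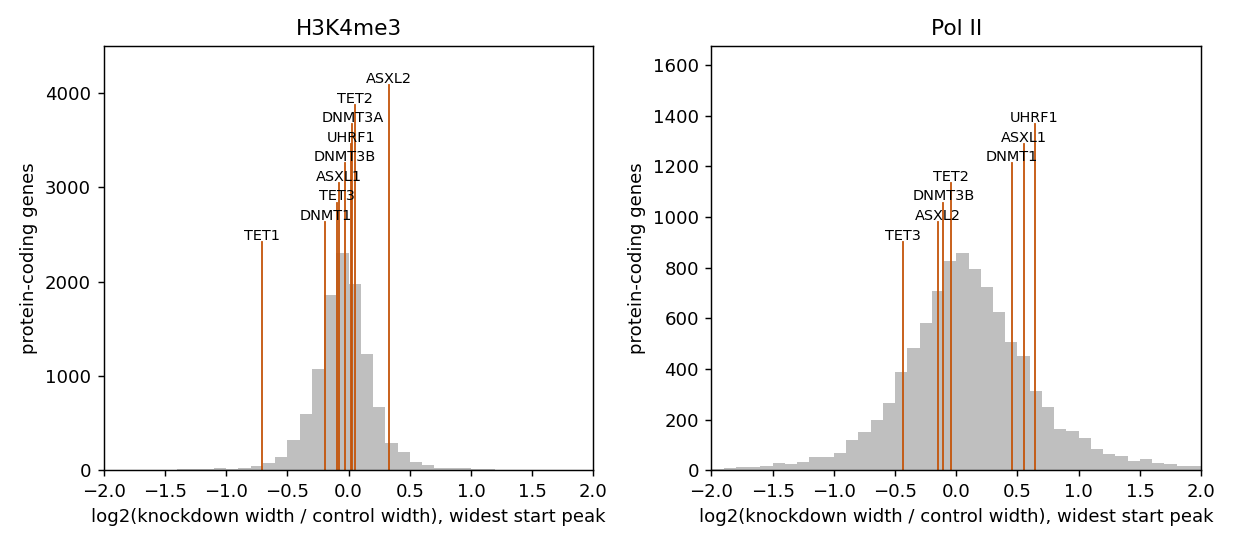
Distribution over protein-coding genes (grey bars, 0.1 wide) of the log2 ratio of knockdown to control width of the widest start peak, where both peaks overlap, with the members as orange lines whose height carries no value; 8 genes for H3K4me3 and 81 for Pol II lie outside the range shown. TET1 lies on the low side for H3K4me3 (a ratio of 0.612) and UHRF1 and ASXL1 on the high side for Pol II (1.56 and 1.47), inside a Pol II spread that reaches 0.578 at the 5th and 2.09 at the 95th percentile.

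QKI5 CLIP peaks were listed on RNA of 2 members, UHRF1 and ASXL1, both in control alone, while 13.9% of all protein-coding genes had a control CLIP peak and 1.83% a knockdown one. The 6 peaks of the members are among 7337 in the control list, and none of the 669 in the knockdown list belongs to a member. A search by Ensembl gene identifier gave the same counts. The authors' lists give for each peak its read number, its enrichment on a log2 scale and its p as -log10 p.

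UHRF1 had 2 touching control CLIP peaks on the plus strand of chromosome 19, its own strand, at 4939374 to 4939450 and 4939451 to 4939514. Each had 8 reads, with log2 enrichment 6.92 and -log10 p 8.74. In the control list 9.46% of peaks had a higher enrichment and 34.6% a stronger p. They lie 36.3 and 36.4 kb into the gene, 11.4 kb or more from any ChIP peak in the 4 lists. By an arithmetic inferred from the values, the linear enrichment is the read number times 15.18 divided by a whole number. That number, which could be a count of background reads, is 1 at each of these peaks. The lists do not tell a count of 1 from a floor set at 1.

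ASXL1 had 4 control CLIP peaks on its own plus strand of chromosome 20, at 3 sites once touching peaks were joined. The touching peaks at 32406381 to 32406437 and 32406438 to 32406493, 48.0 and 48.1 kb into the gene, each had 11 reads, with log2 enrichments of 5.38 and 5.06 and -log10 p of 10.26 and 9.78. The peaks at 32436317 to 32436426 and 32436616 to 32436646 lie 2.9 and 2.7 kb before the 3′ end of the gene. They had 11 and 13 reads and log2 enrichments of 3.80 and 3.23, near the bottom of the list, where 93.2% and 98.6% of peaks had more. None of the 6 lies on a ChIP peak, and the knockdown Pol II peak past the 3′ end of ASXL1 is 3.0 kb from the last. Median read numbers were 9 per control and 8 per knockdown peak, so the members' peaks are of usual size for this list. Whether these positions are exonic, and which bases they hold, was not analysed here.

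A list of 36 further genes of the same pathways was examined in the same way. H3K4me3 was at a gene end in both conditions at 33 of 36 and Pol II at 31 of 36, against 66.6% and 57.6% of all protein-coding genes. In a single condition, 0 of 36 had either mark. Over all genes, control alone and knockdown alone held 0.554% and 0.779% for H3K4me3, and 1.91% and 3.97% for Pol II. DNMT3L, a cofactor of the de novo enzymes in germ cells, had neither mark, nor did the outer ends of ZBTB38 and AHCY, whose starts inside the gene carried both. ASXL3, the third ASXL gene, and CXXC4 had H3K4me3 in both conditions and no Pol II. Of 36, 12 had control CLIP peaks and 1 a knockdown peak, against 13.9% and 1.83% of all protein-coding genes. The 36 genes were chosen by name, and these differences were not tested.

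Genes of the MBD family (named for the methyl-CpG-binding domain) and ZBTB38 were among those with CLIP peaks. MBD5 had 3 control peaks with 8 to 19 reads, ZBTB38 1 with 11 reads, and MBD1 2 with 11 reads each. MBD1 was the sole gene of the list with knockdown peaks, 2 touching peaks of 6 reads each (chromosome 18, 50272265 to 50272327), at another position than its control peaks. Of genes tied to the BAP1 complex, FOXK1 and FOXK2 had 2 control peaks each, with 14 and 17 and with 8 and 13 reads, and OGT 1 with 18 reads. The metabolic genes IDH1 and IDH2, known for mutations in leukaemia that block TET enzymes, had 2 each, with 8 reads at each IDH1 peak and 12 and 13 at IDH2. Peaks were also listed at CXXC5 (1 peak, 12 reads), the glycosylase gene SMUG1 (2 peaks of 10 reads) and USP7, a stabiliser of DNMT1 and UHRF1 (1 peak, 9 reads).

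For each member, the protein-coding gene most alike was found by the sum of absolute differences in log2(gene-end width + 1 bp) over the 4 ChIP lists, among genes that share no peak with it and stand in neither list. For DNMT3A it was LOC124903573 (a sum of 0.17), whose H3K4me3 widths were 4101 and 3989 bp and whose Pol II widths were 0 and 1601 bp. For TET1 it was SAMD9L (0.18), with H3K4me3 widths of 3494 and 2195 bp and a narrowest Pol II peak in knockdown alone. The others were CFAP418 for DNMT1 (0.20), SRCIN1 for DNMT3B (0.11), INTS1 for TET2 (0.13), HIRA for TET3 (0.13), SRSF4 for ASXL1 (0.29) and FDXR for ASXL2 (0.23). For UHRF1 64 genes tied at a sum of 0, since by its outer ends it has a narrowest control Pol II peak and nothing else, and none of them is singled out. The measure has 4 values per gene, from pooled lists, and says nothing of shared function.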

How the data were processed

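Peaks of H3K4me3 and Pol II ChIP and of QKI5 CLIP were analysed in THP-1 cells with a control hairpin or a hairpin against QKI5; the 22 samples form 10 groups, and the inputs have no list of their own. Each list was made by the authors from 2 replicates together, per the series design text. HOMER and GRCh38.p5 are named, per the submitters' processing notes; the sources used here do not give the peak caller, its settings or the aligner. The score the authors deposited is 1 at every ChIP peak, so width was used. The CLIP lists have no header: their columns were read from the values as the authors' -log10 p, log2 enrichment and a field ending in the read number.

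Start positions in the files count from 0 and were raised by 1. Gene ends, starts and strands came from RefSeq tables of GRCh38.p14, a patch release of the same assembly; patches leave chromosome coordinates as they are. A peak within 1 kb (1000 bp) of a gene end or start (any RefSeq start or the 5′ outer end) counted, and peaks of both conditions overlapped from 1 bp. No test was possible. The members and gene lists were chosen with earlier results of these data known, and the use of RefSeq starts inside the gene was added after the data were seen. All 9 members are named; of the 36 companion genes, those in a single condition or with CLIP peaks. Some genes of the companion and marker lists are counted but not reported by name here. Overlap counting was tested on simulated data. Python 3.11.15, pandas 2.3.3 and numpy 2.4.6 were used.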

Additional observations from a re-analysis of the deposited data

How the results depend on the processing

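No paired analysis was possible because each list pools both replicates, and for the same reason no replicate could be left out. Of 70 values under alternative settings, 52 stayed within 1.5 times the value reported and 18 did not. The count of members with Pol II at a gene end in control alone fell from 1 to 0 with a 500 bp or 5 kb window, with the 5′ outer end alone, without narrowest peaks, and with any start (RefSeq or 5′ outer end), the member in question being UHRF1. The count with Pol II in neither list was then 1 with the 500 bp window or the 5′ end, and 2 (TET1 and UHRF1) without narrowest peaks. Pol II in knockdown alone went from 2 to 1 without narrowest peaks, leaving DNMT3A, and to 1 with any start, leaving TET1. H3K4me3 in neither list went from 1 to 0 with any start. Without 1 kb at either gene end, H3K4me3 peaks on the spans numbered 8 in each condition, of which 6 in each overlapped, and 7 Pol II peaks in each overlapped. With a -log10 p of at least 10, 1 of the 6 CLIP peaks was left, at ASXL1. The unknown depth limits every absence: a peak that is not listed can lie under the caller's threshold.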

Other observations

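Some peaks lay within 5 kb outside the members. Upstream of DNMT1 an H3K4me3 site was in both conditions, 1305 bp in control (chromosome 19, 10198490 to 10199794) and 1137 bp in knockdown (10198584 to 10199720), and Pol II lay on it in knockdown alone, with 2052 bp (10197521 to 10199572). Upstream of ASXL1 a 658 bp Pol II peak (chromosome 20, 32355359 to 32356016) was in knockdown alone, 1048 bp from the control start peak. Beyond the 3′ end of TET2 a narrowest Pol II peak (chromosome 4, 105280994 to 105281494) was in knockdown alone. Next to the 3′ end of UHRF1 a 5399 bp control Pol II peak (chromosome 19, 4964432 to 4969830) lies within 1 kb of a start of KDM4B, a histone demethylase gene. This control peak overlaps a knockdown Pol II peak at 4967500 to 4969930, so Pol II was listed there in both conditions.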
